A study of Homo sapiens with 72 samples.

Results

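Aminoacyl-tRNA synthetases are the enzymes that join each amino acid to its transfer RNA, the step that supplies the ribosome with its building blocks. Human cells make one set for the cytosol and a second, encoded by separate nuclear genes, that is imported into mitochondria. GARS1 and KARS1 each make both forms from 1 gene, and 8 of the cytosolic enzymes sit in a shared particle, the multi-synthetase complex, held together by the scaffold proteins AIMP1, AIMP2 and EEF1E1. Many cytosolic synthetase genes are also known targets of ATF4, the transcription factor that is made when stress slows translation. The family was taken by gene symbol. No measured value entered that rule, but earlier results of these data were known when the family was chosen. It holds 37 of the 61541 genes in the tables. Of these, 20 are cytosolic (symbols with no digit or with 1, and FARSA and FARSB) and 17 mitochondrial (symbols with 2). There is no second gene for the glycyl, lysyl and glutaminyl enzymes, so GARS1, KARS1 and QARS1 are counted as cytosolic.

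The data describe cells with and without G3BP1, an RNA-binding protein that is needed, with its relative G3BP2, to build stress granules. In the RNA immunoprecipitation (RIP), FlpIn 293 Trex embryonic kidney cells with a stably integrated FLAG-tagged G3BP1 were given 1 ug/mL tetracycline for 24 h, and RNA recovered with the FLAG antibody (3 libraries) was compared with input RNA (3 libraries). The other experiments used U2OS osteosarcoma cells with 2 libraries per group. The first compared untreated wild-type cells, untreated G3BP1/2 knockout cells, and knockout cells 24 h after Lipofectamine transfection with a G3BP1 transgene. The second held only knockout cells, which were untransfected, or 24 h past Lipofectamine transfection with wild-type G3BP1 or with a form lacking the NTF2 domain, the part of G3BP1 that pairs its molecules, and each of these was left unstressed or given 200 uM sodium arsenite for 2 h. Arsenite oxidises cell components and halts most translation. The knockout groups were not transfected, so the effect of a rescue and the effect of transfection cannot be told apart. Whether the knockout line is 1 clone is not given in the sources used here, nor whether the libraries of a group came from separate cultures, so the p-values measure the spread between these libraries.

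Of 72 libraries in the series, the 24 behind the 11 deposited result tables are used here. In the U2OS experiments the reads of each library could be worked out exactly from those tables. Libraries held 38590157 to 52470072 gene reads (first experiment) and 10793184 to 27755473 (second experiment), and the 2 libraries of a group differed by more than sampling noise (mean squared standardised difference of 3.9 to 4.18 and of 1.75 to 3.14, where sampling alone gives about 1). G3BP1 itself stood at 12628 and 12603 normalised reads in the 2 knockout libraries of the first experiment, 19023 and 18087 in wild type and 20375 and 20087 in the rescue, so its RNA was lower but still present in the knockout. In the second experiment it stood at 3815 and 3884 in the knockout, at 621709 and 591137 in the wild-type rescue and at 839200 and 804718 in the NTF2-deletion rescue. G3BP1 reads thus made up 3.83% to 6.22% of all gene reads in the rescue libraries of the second experiment. In the authors' deposited table of knockout against wild type, the bone markers COL1A1, SPARC, SPP1, RUNX2 and ALPL had base means of 87400, 68100, 1190, 924 and 388. COL1A2 was only at 17.5 and IBSP at 0. Of the markers of other cells PTPRC, PECAM1, CD3E and MYH6 were at 21.3, 1.51, 0 and 1.21 but the epithelial marker EPCAM at 453. In the RIP table of the authors' deposited tables, the kidney-line markers PAX2, LHX1, NEFL, NEFM and EYA1 had base means of 45.8, 36.9, 1080, 4.87 and 76.4. The bone markers RUNX2, SPARC, COL1A1 and ALPL were at 69.0, 32.0, 26.4 and 20.4 there, SPP1 at 2.61, and COL1A2 and IBSP at 0. EPCAM was at 911. The same 5 kidney-line markers had base means of 146, 307, 3820, 12.3 and 548 in the authors' deposited U2OS table, so they did not set the kidney line apart from U2OS.

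Most cytosolic synthetase transcripts were higher in knockout cells given a G3BP1 transgene than in untransfected knockout cells, in both U2OS experiments. Mitochondrial members moved the same way or were not called in these comparisons, and the response of either class to arsenite was smaller. "Called" below means an adjusted p under 0.05 in the authors' DESeq2 test, and the share of all tested genes called in the same direction is given beside the first count of each comparison. Summed over the 20 cytosolic genes, the reads were 0.293% and 0.301% of all gene reads in the 2 knockout libraries of the second experiment, 0.409% and 0.404% in the wild-type rescue and 0.399% and 0.398% in the NTF2-deletion rescue. The 17 mitochondrial genes together took 0.0642% and 0.0647% in the knockout, 0.0764% and 0.0757% in the wild-type rescue and 0.0749% and 0.0751% in the NTF2-deletion rescue. For both classes the knockout libraries lay below every rescue library. In these bulk libraries a change in the number of cells that hold a transcript and a change in the RNA per cell cannot be told apart.

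**Figure D1:**
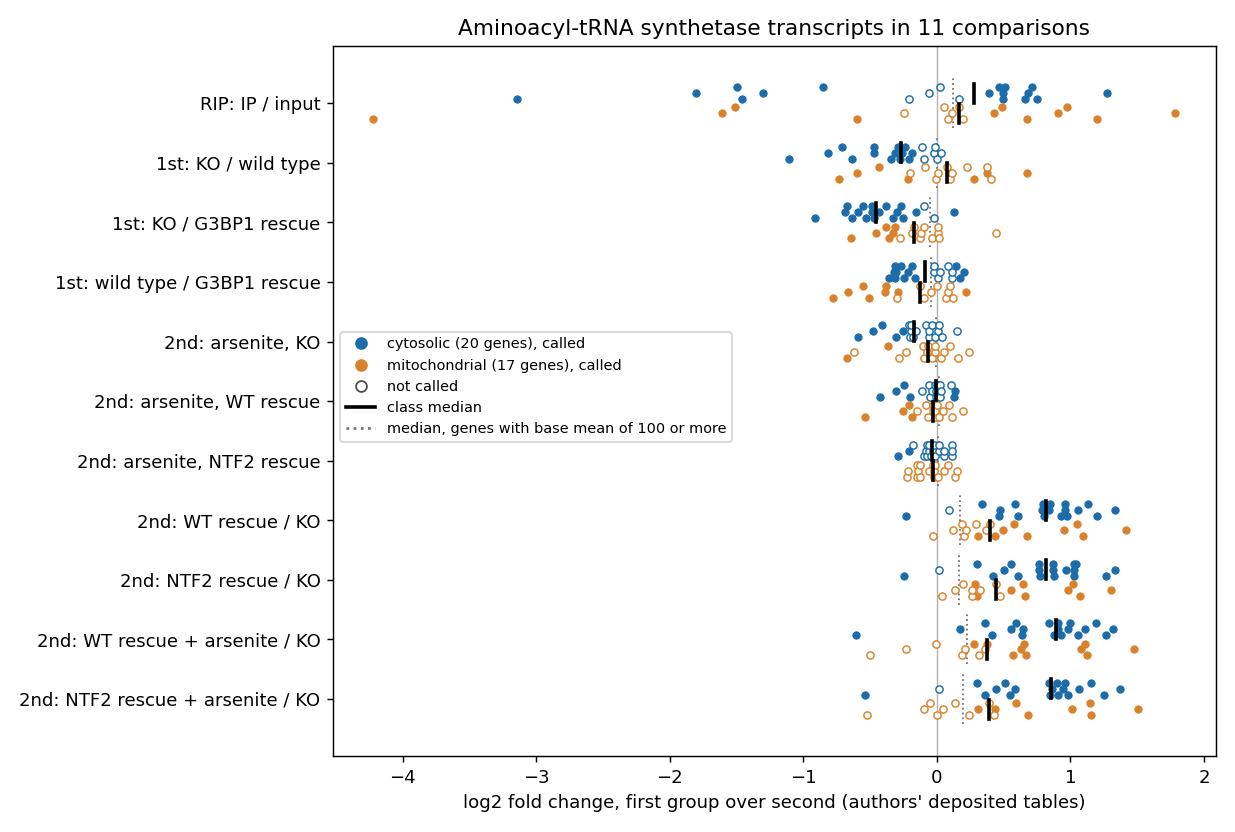
Log2 fold change of each of the 37 synthetase genes in the 11 deposited comparisons (horizontal axis, first group over second), with cytosolic genes in blue, mitochondrial genes in orange, filled points for genes called by the authors' test and a black tick at each class median. In the 4 comparisons of rescue with knockout at the bottom, the cytosolic medians lie between 0.82 and 0.89 and the mitochondrial medians between 0.37 and 0.44, to the right of the dotted median of all genes with a base mean of 100 or more.

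In unstressed cells of the second experiment, 18 of 20 cytosolic synthetases were higher in the wild-type rescue than in the knockout and 1 was lower by the authors' deposited table, where 23.0% of 20738 tested genes were called higher and 19.1% lower. For the NTF2-deletion rescue the authors' deposited table also called 18 higher and 1 lower, beside 22.8% and 18.7% of 20911 genes. The median log2 fold change of the cytosolic members was 0.82 in each of these authors' deposited tables, against 0.18 and 0.17 over all genes with a base mean of 100 or more. Both comparisons use the same 2 knockout libraries, so they are not independent of each other. At a base mean of 100 or more, 41.0% of genes were called higher in the wild-type rescue table and 40.5% in the NTF2-deletion table, which is the closer background for genes as abundant as these. When fold changes were counted from that table median, 17 cytosolic members were called higher and 1 lower in each comparison.

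Of the 12 free-standing cytosolic enzymes, which work outside the complex, 11 rose in each rescue. FARSA, the catalytic subunit of the phenylalanyl enzyme, stood at 478 and 527 normalised reads in the knockout libraries, 1300 and 1218 in the wild-type rescue and 1273 and 1245 in the NTF2-deletion rescue. WARS1, the tryptophanyl enzyme, stood at 382 and 418 in the knockout, 929 and 900 in the wild-type rescue and 998 and 912 in the NTF2-deletion rescue. For both genes every rescue library lay far above both knockout libraries, a gap much wider than that between libraries of a group. In the authors' deposited tables FARSA rose by 1.33 on the log2 scale (SE 0.12, adjusted p = 9.42e-29) with wild-type G3BP1 and 1.34 (adjusted p = 4.47e-29) with the NTF2-deletion form. WARS1 rose by 1.20 (SE 0.13, adjusted p = 6.63e-19) and 1.26 (adjusted p = 1.99e-20) in the same authors' deposited tables. YARS1, the tyrosyl enzyme, rose by 1.13 (adjusted p = 5.1e-60) with the wild-type form and 1.02 with the NTF2-deletion form, again from the authors' deposited tables. Of the 12, AARS1, the alanyl enzyme, was the 1 that was not called. It stood at 2880 and 3302 reads in the knockout, 3224 and 3251 in the wild-type rescue and 3216 and 2947 in the NTF2-deletion rescue, so the groups overlapped.

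Among the 8 enzymes of the multi-synthetase complex, 7 rose and QARS1 fell in each unstressed rescue, with medians of 0.60 and 0.58 from the authors' deposited tables, against 0.94 and 0.92 for the free-standing enzymes. The complex therefore held the 1 cytosolic member that moved the other way. QARS1, the glutaminyl enzyme, stood at 3041 and 2960 normalised reads in the knockout, 2456 and 2577 in the wild-type rescue and 2543 and 2442 in the NTF2-deletion rescue, with both rescues below both knockout libraries. The authors' deposited tables gave it log2 fold changes of -0.23 (SE 0.07, adjusted p = 0.00267) and -0.24 (adjusted p = 0.00244). KARS1, the lysyl enzyme of both compartments, went from 1602 and 1728 reads to 3110 and 3281 with wild-type G3BP1 and to 3476 and 3297 with the NTF2-deletion form. This was a rise of 0.96 (adjusted p = 8.51e-35) and 1.04 (adjusted p = 7.94e-39) on the log2 scale from the authors' deposited tables. The smallest rises that were called in the complex were those of MARS1, the methionyl enzyme, at 0.34 (adjusted p = 9.52e-06) and 0.42 (adjusted p = 8.85e-08) from the authors' deposited tables.

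The mitochondrial synthetases, which serve the translation of the mitochondrial genome, were either called higher or not called. In the unstressed rescues, fold changes lay above 0 for 16 of 17 with the wild-type form and 17 of 17 with the NTF2-deletion form. Both rescue libraries lay above both knockout libraries for 15 and 16 of them, beside 37.1% and 36.3% of all tested genes. From the authors' deposited tables, 9 of 17 were higher and 0 lower in each unstressed rescue (at an unadjusted p under 0.05 the DESeq2 test also gave 0 lower, with 9 higher for the wild-type form and 10 for the NTF2-deletion form), and the medians were 0.39 and 0.44. The 9 of 17 are to be read against the 41.0% and 40.5% of genes called higher at a base mean of 100 or more. Counted from the table median, 7 and 6 were higher, and the share of all genes counted that way is not given here. The difference between the 2 classes was not tested. MARS2, the mitochondrial methionyl enzyme, had 182 and 163 normalised reads in the knockout, 429 and 504 in the wild-type rescue and 413 and 444 in the NTF2-deletion rescue, with both rescues well above the knockout. In the authors' deposited tables it rose by 1.42 (SE 0.19, adjusted p = 5.25e-13) and 1.30 (adjusted p = 3.05e-11). YARS2 rose by 1.09 (adjusted p = 3.43e-14) and 1.07 (adjusted p = 7.48e-14), and CARS2 by 1.05 (adjusted p = 2.35e-18) and 1.02 (adjusted p = 4.33e-16), in the same authors' deposited tables. These are the mitochondrial tyrosyl and cysteinyl enzymes. At the other end IARS2, the mitochondrial isoleucyl enzyme, had values of 0.12 (adjusted p = 0.211) and 0.13 (adjusted p = 0.17) from the authors' deposited tables. VARS2, the mitochondrial valyl enzyme, was counted at only 33 to 51 normalised reads in these 6 libraries, and its values of 0.39 (adjusted p = 0.507) and 0.26 (adjusted p = 0.689) from the authors' deposited tables carry little precision.

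**Figure D2:**
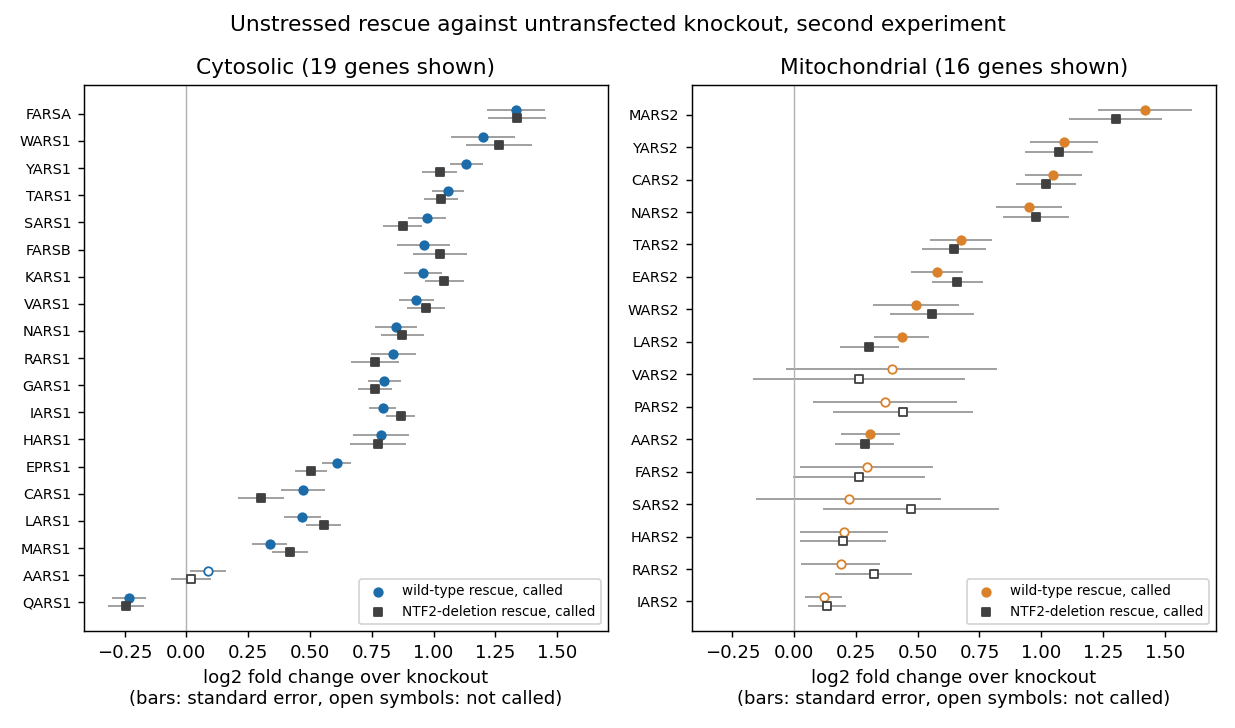
Log2 fold change over the untransfected knockout (horizontal axis, bars are standard errors) for the cytosolic and mitochondrial synthetases that are named here, with circles for the wild-type rescue, squares for the NTF2-deletion rescue and open symbols for genes not called. The 2 forms lie close together for each gene shown, from FARSA (1.33 and 1.34) at the top to QARS1 (-0.23 and -0.24) at the bottom of the cytosolic panel.

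The 2 forms of G3BP1 were compared with each other through the difference of their fold changes over the shared knockout libraries. Of 16210 genes tested in this way, 3 were called (0.0185%), and none was a synthetase: 0 of 20 cytosolic and 0 of 17 mitochondrial members by the difference test, and 0 of each at an unadjusted p under 0.05. Differences of wild type minus NTF2-deletion ran from -0.09 to 0.17 among cytosolic and from -0.25 to 0.13 among mitochondrial members, with class medians of 0.00. The median half-width of the unadjusted 95% interval was 0.22 for cytosolic and 0.38 for mitochondrial members. A call after adjustment over the 16210 genes needs a larger difference than that. With 2 libraries per group, the absence of calls therefore does not exclude differences of this size or above. Since the knockout libraries enter both sides, these intervals are wider than a direct comparison would give.

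With arsenite present, both rescues were again compared with the unstressed knockout in the authors' deposited tables. For the wild-type form 19 cytosolic members were higher and 1 lower, beside 25.1% and 19.8% of 22192 genes (44.9% and 25.4% at a base mean of 100 or more), and for the NTF2-deletion form 18 were higher and 1 lower, beside 23.3% and 19.6% of 21660 genes (42.2% and 25.5% at a base mean of 100 or more). The cytosolic medians were 0.89 and 0.86, against 0.22 and 0.19 over genes with a base mean of 100 or more, in these authors' deposited tables. Among mitochondrial members 10 and 8 were higher and 0 lower in each (at an unadjusted p under 0.05, 10 and 9 higher and 0 lower by DESeq2), to be read against the 44.9% and 42.2% of genes called higher at that base mean, and this became 6 higher and 2 lower in each when counted from the table median. YARS1 and MARS2 led the wild-type table, at 1.32 (adjusted p = 9.59e-96) and 1.48 (adjusted p = 2.78e-17), from the authors' deposited table. MARS2 also led the NTF2-deletion table, at 1.51 (adjusted p = 1.11e-16) from the authors' deposited table. QARS1 was again the lower one, at 1878 and 1892 reads in the wild-type rescue with arsenite and 2035 and 1990 in the NTF2-deletion rescue with arsenite, with log2 fold changes of -0.61 (adjusted p = 1.47e-18) and -0.54 (adjusted p = 2.32e-13) from the authors' deposited tables. AARS1, at 0.17 (adjusted p = 0.0341) from the authors' deposited table for the wild-type form, was -0.05 once counted from the table median. Transfection, arsenite and time differ together in these 2 comparisons.

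**Figure D3:**
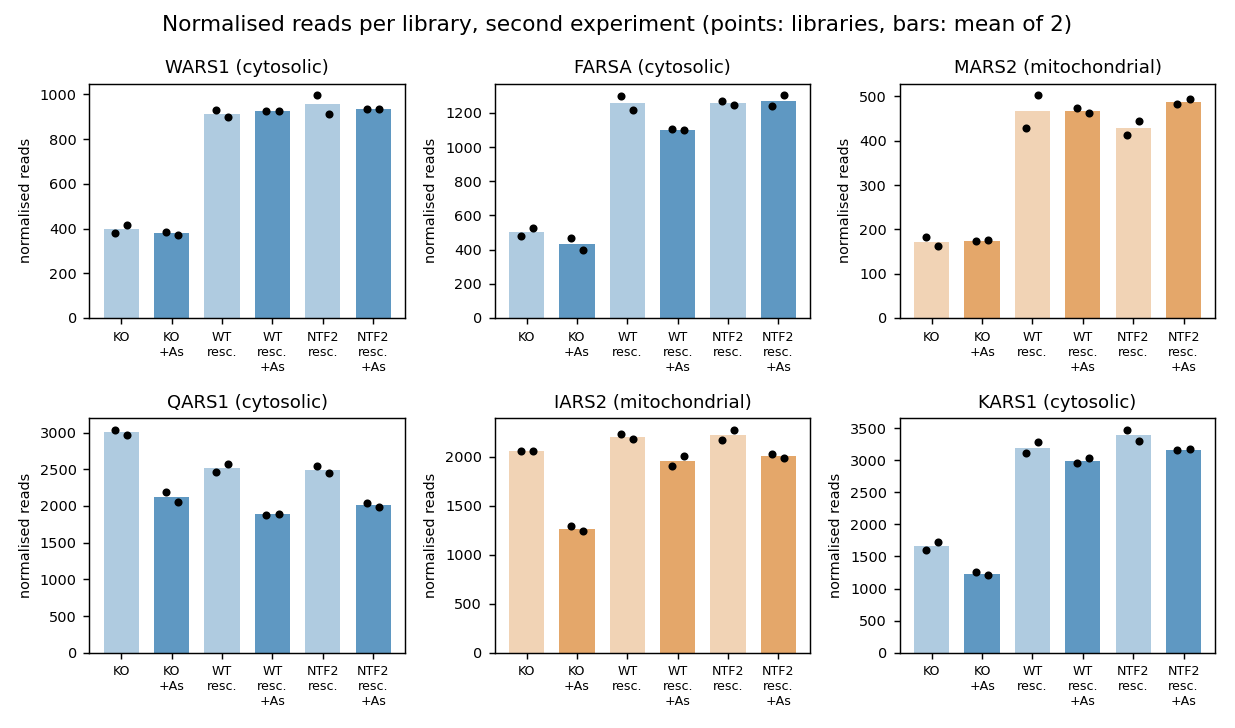
Normalised reads (vertical axis, starting at 0) of 6 synthetase genes in each of the 12 libraries of the second experiment, as points, with bars at the mean of the 2 libraries of a group, darker with arsenite. WARS1, FARSA, MARS2 and KARS1 are higher in all 8 rescue libraries than in the 4 knockout libraries, QARS1 is lower with arsenite in each background, and IARS2 is lowest in the 2 arsenite-treated knockout libraries.

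Promoters of the members were searched for 1 word, TGATGNAA, the C/EBP-ATF composite element that ATF4 can bind, searched on both strands from 250 bases before to 50 bases after each gene start. RefSeq (GRCh38.p14) promoter windows were matched by symbol for 30 of the 37 members. The word was found in 7 of 16 cytosolic members (43.8%) and 1 of 14 mitochondrial members (7.14%), beside 1217 of all 27305 genes (4.46%) and 1270 of 35116 windows (3.62%), and in 5 of the 19 matched genes of the ATF4 list. The stretches below show the word in capitals with 11 bases on each side, each read 5′ to 3′ on the strand of its gene, to let the reader compare the bases around it.
AARS1 (chr16:70289675-70289704, minus strand): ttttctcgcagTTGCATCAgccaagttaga
CARS1 (chr11:3057407-3057436, minus strand): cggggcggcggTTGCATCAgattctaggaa
GARS1 (chr7:30594834-30594863, plus strand): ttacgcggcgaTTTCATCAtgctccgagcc
IARS1 (chr9:92293692-92293721, minus strand): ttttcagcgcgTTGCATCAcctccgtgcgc
MARS1 (chr12:57488053-57488082, plus strand): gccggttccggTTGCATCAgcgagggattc
NARS1 (chr18:57621804-57621833, minus strand): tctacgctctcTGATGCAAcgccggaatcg
TARS1 (chr5:33440956-33440985, plus strand): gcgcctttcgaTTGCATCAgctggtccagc
YARS2 (chr12:32756076-32756105, minus strand): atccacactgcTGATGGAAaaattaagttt
In NARS1 and YARS2 the word reads along the gene, and in the other members it lies on the opposite strand. Its first base lies 2, 4, 13 and 33 bases before the start in CARS1, MARS1, IARS1 and GARS1, 187 and 197 bases before it in AARS1 and YARS2, and past the start in TARS1 and NARS1. A match describes these letters and is not a binding site. For the wild-type rescue over the unstressed knockout, the authors' deposited table gave a median log2 fold change of 0.79 over the 7 cytosolic members with the word and 0.96 over the 9 matched members without it. Values ran from 0.09 (AARS1) to 1.06 with the word and from -0.23 (QARS1) to 1.33 (FARSA) without it. In the first experiment the medians with and without the word were -0.11 and -0.47 for knockout against wild type. They were -0.30 and -0.59 for knockout against rescue, and -0.06 and -0.25 for arsenite in the knockout of the second experiment. Whether the word has a part in these fold changes was not tested.

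In the first experiment the authors set the knockout over the rescue, so a level raised by the rescue appears here as a negative fold change. Their table, again one of the authors' deposited tables, called 17 of 20 cytosolic members lower in the knockout and 1 higher, beside 21.5% of 22945 genes lower and 16.1% higher. Of the mitochondrial members 6 of 17 were lower and 0 higher (7 and 0 at an unadjusted p under 0.05 by DESeq2) from the authors' deposited table. Medians were -0.45 for cytosolic and -0.17 for mitochondrial members, against -0.05 over genes with a base mean of 100 or more, where 32.7% were called lower, all from the authors' deposited table. WARS1 stood at 1663 and 1618 normalised reads in the knockout and 3181 and 3003 in the rescue, a change of -0.91 on the log2 scale (SE 0.07, adjusted p = 2.57e-34) from the authors' deposited table. SARS1, the seryl enzyme, stood at 5515 and 5421 against 8997 and 8510, a change of -0.69 (adjusted p = 2.98e-38) from the authors' deposited table. In both genes the groups were far apart. AARS1 was the 1 cytosolic member higher in the knockout, at 0.13 (adjusted p = 0.0145) from the authors' deposited table. QARS1, which fell in the rescues of the second experiment, was lower in the knockout here, at -0.16 (adjusted p = 0.00325) from the authors' deposited table, a call that was lost when counted from the table median (-0.11). YARS2 was the lowest mitochondrial member, at 1499 and 1447 reads against 2326 and 2264, with a change of -0.64 (adjusted p = 2.21e-15) from the authors' deposited table.

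Untreated knockout cells were also lower than wild-type cells, which had not been transfected either. The authors' deposited table called 14 of 20 cytosolic members lower and 0 higher (15 and 0 at an unadjusted p under 0.05 by DESeq2), beside 19.4% lower and 18.4% higher of 25724 genes, with a median of -0.27. Among mitochondrial members 4 were lower and 3 higher, with a median of 0.08, from the authors' deposited table. These counts stand beside 30.4% lower and 27.8% higher among genes with a base mean of 100 or more. WARS1 stood at 3411 and 3671 reads in wild type, against 1663 and 1618 in the knockout, and its change in the knockout was -1.11 (SE 0.08, adjusted p = 4.74e-45) from the authors' deposited table. SARS1 followed at -0.81 (adjusted p = 1.7e-51) and HARS1, the histidyl enzyme, at -0.71 (adjusted p = 6.72e-26) from the authors' deposited table. EARS2, the mitochondrial glutamyl enzyme, went the other way. It stood at 3100 and 3277 reads in the knockout and 2013 and 1960 in wild type, a rise of 0.67 (SE 0.07, adjusted p = 3.05e-18) from the authors' deposited table, and the rescue, at 3476 and 3289, was not called against the knockout (-0.10, adjusted p = 0.266).

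The third pairing, wild type against rescue, shows where the rescue stood apart from wild type. By the authors' deposited table, 10 cytosolic members were lower in wild type and 3 higher, and among mitochondrial members 7 were lower and 1 higher. Of 22861 genes 20.4% were lower and 15.2% higher (30.7% and 23.0% at a base mean of 100 or more). Counted from the table median the members called became 9 lower and 6 higher (cytosolic), and 6 lower and 2 higher (mitochondrial). The lowest values were those of EARS2, at -0.78 (SE 0.07, adjusted p = 1.35e-27), CARS2, at -0.66 (adjusted p = 2.07e-16), and NARS2, the mitochondrial asparaginyl enzyme, at -0.55 (adjusted p = 7.91e-10), from the authors' deposited table. Among cytosolic members KARS1 was lowest in wild type, at -0.36 (adjusted p = 1.31e-11), and EPRS1, which joins both glutamate and proline to their transfer RNAs, was highest, at 0.20 (adjusted p = 2.01e-05), from the authors' deposited table. The 3 tables of this experiment share their libraries in pairs.

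The fold changes of neighbouring genes were set beside those of the synthetases. For each synthetase the median log2 fold change of its 10 nearest tested genes, 5 on each side in the RefSeq order of GRCh38.p14, was taken from the same deposited table. Across the 37 members the rank correlation of the 2 was 0.62 for knockout against wild type and 0.41 for knockout against the first rescue. It was 0.32 for wild type against that rescue. In the second experiment it was 0.03 and 0.19 for the wild-type and NTF2-deletion rescues over the knockout, and 0.07 and 0.05 with arsenite. For the response to arsenite it was 0.32 in the knockout, 0.30 in the wild-type rescue and 0.21 in the NTF2-deletion rescue (36 members). The immunoprecipitate gave 0.11. These values are a description, since members share libraries and some share neighbours, and the same correlation over all genes is not given here. In the authors' deposited table of knockout against wild type, EARS2 at 0.67 lay among neighbours with a median of 0.67, of which 10 of 10 had the same sign. WARS1 at -1.11 lay among neighbours with a median of -0.84, of which 8 of 10 had the same sign, from the authors' deposited table. CARS2 and WARS2, called higher at 0.28 and 0.38, lay beside medians of 0.73 and 0.51 from the authors' deposited table. GARS1, the glycyl enzyme, was the opposite case, at -0.34 among neighbours with a median of 0.71, of which 1 of 10 shared its sign, and SARS1 at -0.81 lay beside a median of -0.14, from the authors' deposited table. What part the neighbourhood has in these fold changes was not tested.

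**Figure D4:**
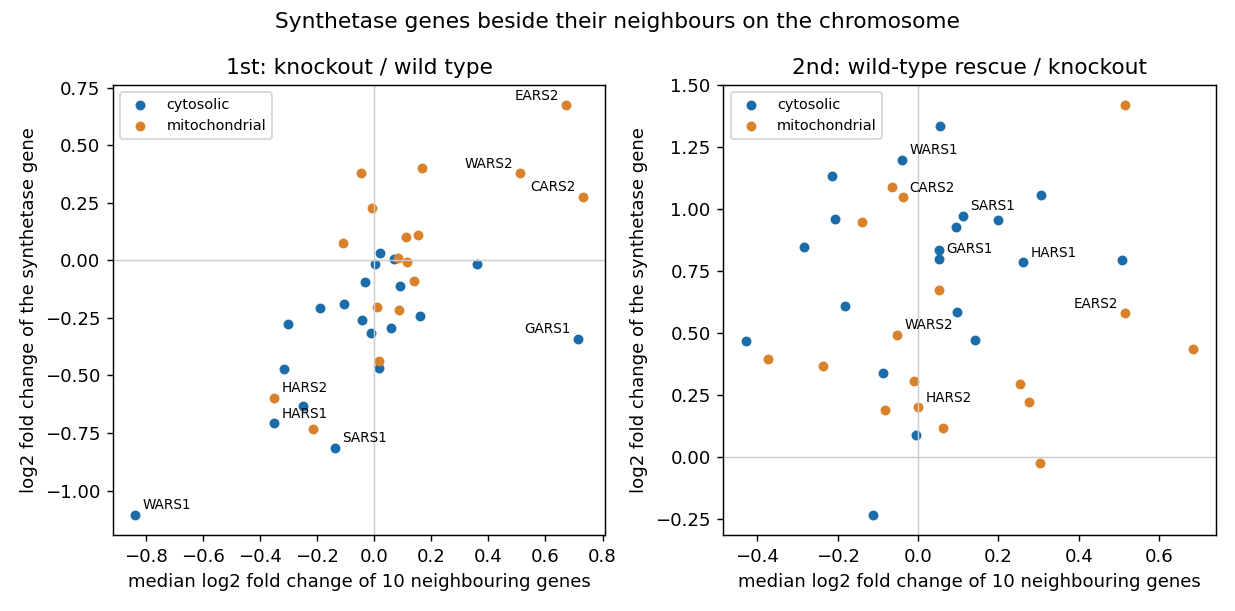
Log2 fold change of each synthetase gene (vertical axis) against the median log2 fold change of its 10 nearest tested genes on the chromosome (horizontal axis), for the knockout over wild type (left, first experiment) and the wild-type rescue over the knockout (right, second experiment). In the left panel WARS1 (-1.11 beside -0.84) and EARS2 (0.67 beside 0.67) lie with their neighbours and GARS1 (-0.34 beside 0.71) does not, and in the right panel the 2 measures show no common trend (rank correlation of 0.03).

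HARS1 and HARS2, which make the cytosolic and the mitochondrial histidyl enzymes, start back to back on opposite strands, and their promoter windows of 300 bases share 184 bases. Between their starts lie 84 bases, which are shown in capitals with 8 transcribed bases of each gene in lower case, on the strand of HARS2.
HARS1-HARS2 (chr5:140691363-140691462, plus strand): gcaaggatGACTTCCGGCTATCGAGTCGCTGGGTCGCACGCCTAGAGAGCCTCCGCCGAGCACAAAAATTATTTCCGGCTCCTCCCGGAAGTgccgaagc
Promoter windows that overlap the window of another gene on the opposite strand were found for 5 of 16 cytosolic and 5 of 14 matched mitochondrial members, beside 18.9% of all 27305 genes. HARS1 stood at 2727 and 2777 normalised reads in the first knockout, 4566 and 4423 in wild type and 4450 and 4281 in the rescue, and HARS2 at 939 and 1086, 1616 and 1450, and 1408 and 1367 in the same groups. Both genes were thus lowest in the knockout, at -0.71 and -0.60 (adjusted p = 1.82e-07 for HARS2) against wild type and -0.67 and -0.46 (adjusted p = 2.44e-05 for HARS2) against the rescue from the authors' deposited tables. In the second experiment HARS1 went from 744 and 909 reads in the knockout to 1425 and 1394 in the wild-type rescue and 1440 and 1355 in the NTF2-deletion rescue, while HARS2 went from 299 and 332 to 379 and 338 and to 365 and 350. HARS1 rose by 0.79 (adjusted p = 2.02e-11) and 0.78 (adjusted p = 1.24e-10), and HARS2, at 0.20 (adjusted p = 0.397) and 0.20 (adjusted p = 0.403), was not called, from the authors' deposited tables. The difference between the 2 genes was not tested. With arsenite their values lay between -0.18 and 0.05 from the authors' deposited tables and none was called.

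Most synthetases were not called with arsenite for 2 h, and most that passed the test fell. These counts are to be read against genes with a base mean of 100 or more. Of those, 15.0% were called lower and 10.9% higher in the knockout. In knockout cells the authors' deposited table called 5 of 20 cytosolic members lower and 0 higher, and 2 of 17 mitochondrial members lower and 0 higher, beside 10.9% lower and 8.56% higher of 15497 genes (at an unadjusted p under 0.05 by DESeq2, 7 and 2 lower and 0 higher). Of the 5, 4 belong to the multi-synthetase complex. RARS1, the arginyl enzyme, stood at 1046 and 1019 normalised reads without and 629 and 712 with arsenite, a change of -0.59 (SE 0.12, adjusted p = 8.43e-06) from the authors' deposited table. QARS1 fell from 3041 and 2960 to 2188 and 2049, a change of -0.48 (SE 0.08, adjusted p = 1.34e-08) from the authors' deposited table. KARS1 fell from 1602 and 1728 to 1252 and 1207, a change of -0.41 (SE 0.09, adjusted p = 0.000109), and EPRS1 from 3384 and 3301 to 2652 and 2695, a change of -0.30 (SE 0.07, adjusted p = 0.000331), from the authors' deposited table. For all 4 the libraries with arsenite lay below those without. SARS1 was the free-standing enzyme among the 5, at -0.25 (adjusted p = 0.0392) from the authors' deposited table. IARS2 had the lowest mitochondrial value that was called, with 2057 and 2057 reads without and 1289 and 1244 with arsenite, a change of -0.67 (SE 0.09, adjusted p = 4.87e-13), and LARS2, the mitochondrial leucyl enzyme, followed at -0.37 (adjusted p = 0.0201), from the authors' deposited table. A limma fit chosen after seeing the data called 11 cytosolic and 4 mitochondrial members in this comparison. The share of all genes called by that fit is not given here, so these counts have no background. VARS2 stood at 10 and 19 reads with arsenite, and its value of -0.62 (adjusted p = 0.181) was not called by the authors' deposited table.

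Rescued cells were tested against rescued cells with arsenite in the same way. At a base mean of 100 or more, 14.6% of genes were called lower and 9.82% higher with the wild-type form. For the NTF2-deletion form 6.6% were lower and 2.63% higher at that base mean. With wild-type G3BP1 the authors' deposited table called 4 cytosolic members lower and 2 higher, beside 12.2% lower and 8.18% higher of 13635 genes, and 4 mitochondrial members lower and 0 higher (5 and 0 at an unadjusted p under 0.05 by DESeq2). With the NTF2-deletion form it was 2 cytosolic members lower and 0 higher, beside 6.14% lower and 2.43% higher of 11578 genes, and 0 of the 16 mitochondrial members with an adjusted p from the authors' deposited table (at an unadjusted p under 0.05 by DESeq2, 3 cytosolic members lower and 2 higher and 1 mitochondrial member lower). QARS1 and EPRS1 were called lower in all 3 backgrounds. QARS1 went from 2456 and 2577 to 1878 and 1892 reads with the wild-type form and from 2543 and 2442 to 2035 and 1990 with the NTF2-deletion form, changes of -0.43 (adjusted p = 5.98e-17) and -0.29 (adjusted p = 0.000146) from the authors' deposited tables. EPRS1 changed by -0.31 (adjusted p = 2.07e-12) and -0.21 (adjusted p = 0.00065) in the same authors' deposited tables. The 2 members called higher with the wild-type form were GARS1, at 0.14 (adjusted p = 0.00564), and YARS1, at 0.13 (adjusted p = 0.0105), from the authors' deposited table. The mitochondrial members called lower with the wild-type form included IARS2 at -0.19, LARS2 at -0.21 and VARS2 at -0.54 from the same table. VARS2 was low in reads, with a mean of 48 normalised reads without and 23 with arsenite.

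The arsenite responses of 2 backgrounds were then compared directly, since they share no library. Between wild-type rescue and knockout, 705 of 15648 genes differed (4.51%), among them 0 of 20 cytosolic members and 1 of 17 mitochondrial members (at an unadjusted p under 0.05, 4 and 1 by the same difference test). Between NTF2-deletion rescue and knockout, 1099 of 15442 genes differed (7.12%), among them 1 cytosolic and 1 mitochondrial member. The mitochondrial one was IARS2 each time. Its reads went from 2229 and 2178 to 1909 and 2010 in the wild-type rescue and from 2170 and 2277 to 2028 and 1987 in the NTF2-deletion rescue, a far smaller drop than in the knockout, where the 2 arsenite libraries lay at 1289 and 1244. Its response was higher by 0.49 (SE 0.10, adjusted p = 9.69e-05) with the wild-type form and by 0.53 (SE 0.11, adjusted p = 4.87e-05) with the NTF2-deletion form, both as differences of log2 fold changes from the authors' deposited tables. KARS1 differed for the NTF2-deletion form, by 0.32 (SE 0.11, adjusted p = 0.0467), and had a value of 0.30 (adjusted p = 0.0699) for the wild-type form, from the same authors' deposited tables. Its call for the NTF2-deletion form was lost when fold changes were counted from the table medians. RARS1, the other complex member with a value of this size, was not called, at 0.34 (adjusted p = 0.136) and 0.41 (adjusted p = 0.0507), from the same tables. A limma fit chosen after seeing the data called 4 cytosolic members in each comparison, and the share of all genes it called is not given here. Both comparisons use the same 4 knockout libraries. Between the 2 rescues 52 of 15865 genes differed (0.328%) and 0 synthetases of either class (1 cytosolic and 0 mitochondrial at an unadjusted p under 0.05 by the difference test).

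Synthetase transcripts were spread widely in the G3BP1 immunoprecipitate. The authors' deposited table called 10 of 20 cytosolic members higher in the immunoprecipitate than in input and 6 lower, and 7 of 17 mitochondrial members higher and 4 lower, beside 24.7% higher and 31.4% lower of 22856 genes, or 44.4% and 38.6% at a base mean of 100 or more. Medians were 0.28 and 0.17, against 0.12 over genes with a base mean of 100 or more, from the authors' deposited table. FARSA was the highest cytosolic member, at 1.27 (SE 0.14, adjusted p = 1.86e-19), followed by YARS1 at 0.75 (adjusted p = 1.11e-06) and RARS1 at 0.71 (adjusted p = 2.01e-08), from the authors' deposited table. EPRS1 was the lowest, at -3.14 (SE 0.17, adjusted p = 1.8e-73), followed by AARS1 at -1.81 (SE 0.13, adjusted p = 1.93e-45) and VARS1, the valyl enzyme, at -1.50 (SE 0.16, adjusted p = 4.68e-21), from the authors' deposited table. Of the 8 enzymes of the complex 4 were called higher and 3 lower, shares near those of all genes with a base mean of 100 or more. FARS2, YARS2 and WARS2, the mitochondrial phenylalanyl, tyrosyl and tryptophanyl enzymes, were highest in their class, at 1.79 (SE 0.21, adjusted p = 2.03e-17), 1.20 (adjusted p = 1.56e-10) and 0.97 (adjusted p = 4.94e-11) from the authors' deposited table. The lowest were VARS2, at -4.22 (SE 0.84, adjusted p = 1.86e-06) on a base mean of only 9.91, AARS2 at -1.61 (adjusted p = 6.56e-38) and LARS2 at -1.51 (adjusted p = 6.55e-32) from the authors' deposited table. HARS1 and HARS2 were not called, at -0.06 and 0.12 from the authors' deposited table. The Wald statistics of this table were wide, with a robust spread of 7.07 over all genes, and when divided by it 24 genes in all and 0 synthetases of either class were called (2 cytosolic and 0 mitochondrial at an unadjusted p under 0.05 by the same rescaled test). The libraries behind this table could not be worked out, so no spread between them is given.

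**Figure D5:**
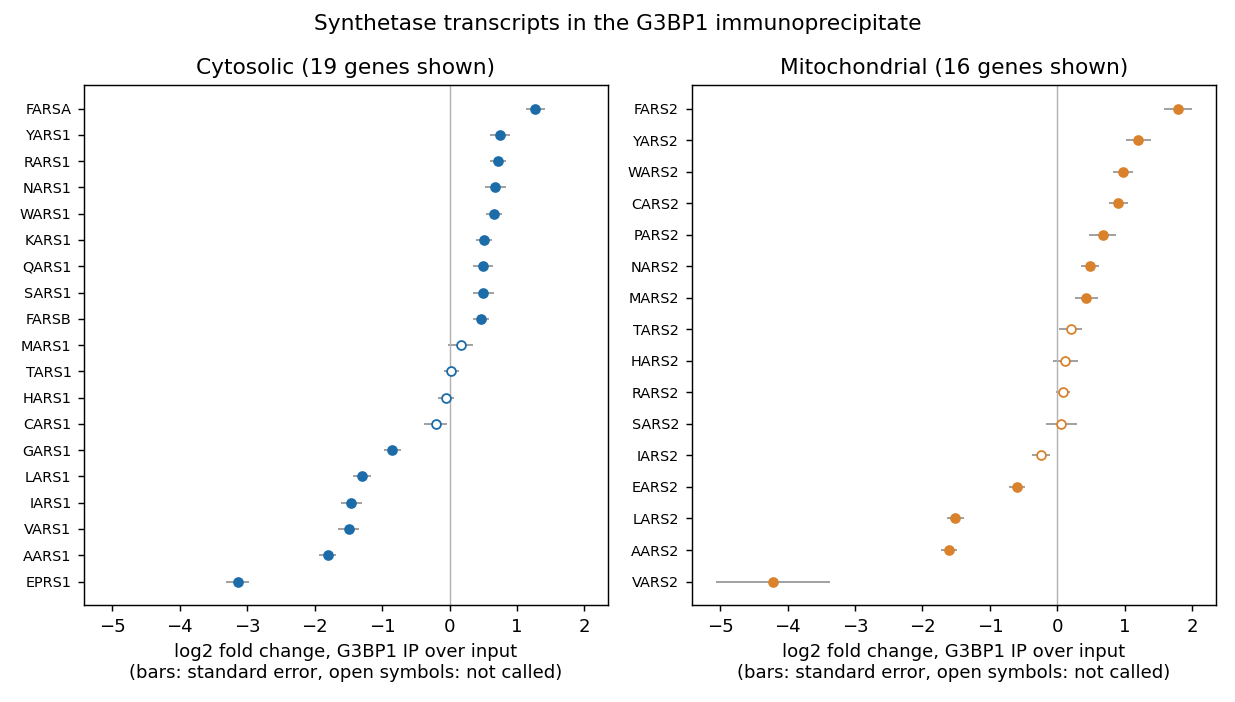
Log2 fold change of G3BP1 immunoprecipitate over input (horizontal axis, bars are standard errors) for the synthetases that are named here, sorted within the cytosolic and mitochondrial classes, with open symbols for genes not called. Cytosolic values run from EPRS1 (-3.14) to FARSA (1.27) and mitochondrial values from VARS2 (-4.22, with the widest bar) to FARS2 (1.79).

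GARS1 and KARS1, whose products serve both compartments, were followed together. GARS1 stood at 8376 and 8025 reads in the first knockout, 10772 and 9957 in wild type and 11612 and 11219 in the rescue, and KARS1 at 7142 and 6745, 8238 and 7774, and 10287 and 9936. Both were thus lowest in the knockout and highest in the rescue, with -0.34 (adjusted p = 1.62e-08) and -0.21 (adjusted p = 0.00128) for knockout against wild type and -0.49 (adjusted p = 5.13e-23) and -0.55 (adjusted p = 2.46e-26) for knockout against rescue from the authors' deposited tables. In the second experiment GARS1 went from 2302 and 2302 reads in the knockout to 4059 and 3863 with the wild-type form and 3878 and 3820 with the NTF2-deletion form, rises of 0.80 (adjusted p = 6.08e-32) and 0.76 (adjusted p = 2.75e-27) from the authors' deposited tables. Under arsenite in the knockout KARS1 fell and GARS1 had a value of 0.01 (adjusted p = 0.976), while in the wild-type rescue GARS1 rose by 0.14 (adjusted p = 0.00564) and KARS1 had a value of -0.11 (adjusted p = 0.0507), from the authors' deposited tables. Neither was called under arsenite in the NTF2-deletion rescue, at 0.12 (adjusted p = 0.17) and -0.09 (adjusted p = 0.412) from the authors' deposited table. They lay on opposite sides of input in the immunoprecipitate, where KARS1 was called higher at 0.51 (adjusted p = 2.78e-05) and GARS1 lower at -0.85 (adjusted p = 5.7e-11), from the authors' deposited tables. The difference between the 2 genes was not tested.

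Of 18 partner genes that scaffold the complex, modify or export transfer RNAs or correct charging errors, 11 were higher and 0 lower in each unstressed rescue of the second experiment (11 and 0 also at an unadjusted p under 0.05 by DESeq2), by the authors' deposited tables. At a base mean of 100 or more, 41.0% and 40.5% of all genes were called higher there and 24.2% and 24.0% lower. In the first experiment's knockout over its rescue 0 partner genes were higher and 12 lower, beside 23.4% and 32.7% of genes at that base mean, by the authors' deposited table. The scaffold genes AIMP1 and AIMP2 rose by 0.73 (SE 0.11, adjusted p = 3.16e-11) and 0.64 (SE 0.10, adjusted p = 8.95e-10) with wild-type G3BP1 from the authors' deposited table, and XPOT, the exporter of transfer RNA from the nucleus, rose by 0.94 (SE 0.08, adjusted p = 2.62e-31). For knockout against wild type 2 of the list were higher and 4 lower (median -0.07), beside 27.8% and 30.4% of genes with a base mean of 100 or more. AIMP2 was higher in the knockout, at 0.18 (adjusted p = 0.0266), by the authors' deposited table. For wild type against the first rescue 9 were lower and 0 higher (10 and 0 at an unadjusted p under 0.05 by DESeq2) by the authors' deposited table, beside 30.7% and 23.0% of genes with a base mean of 100 or more. In the unstressed wild-type rescue over the knockout the highest value of this list was that of QRSL1, at 1.04 (adjusted p = 2.64e-07) from the authors' deposited table. QRSL1 is a subunit of the amidotransferase that makes glutaminyl-tRNA in mitochondria. Under arsenite the authors' deposited tables called 0 of the 18 in the knockout and in the NTF2-deletion rescue by DESeq2 (3 lower in the knockout and 1 higher in the NTF2-deletion rescue at an unadjusted p under 0.05), and 1 lower in the wild-type rescue, AARSD1, which removes wrongly joined amino acids. In the immunoprecipitate 12 were called higher and 4 lower by the authors' deposited table, beside 44.4% and 38.6% of genes with a base mean of 100 or more. Values ran from AARSD1 at -3.06 to LAGE3, part of a transfer RNA modifying complex, at 1.68.

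The 26 genes of an ATF4 amino acid response list were set beside the synthetases. In the unstressed wild-type rescue 15 were higher and 3 lower (median 0.65) and in the NTF2-deletion rescue 16 were higher and 5 lower (median 0.66) from the authors' deposited tables. At a base mean of 100 or more, 41.0% and 40.5% of all genes were called higher in these tables and 24.2% and 24.0% lower. Values of the list ran from -1.92 to 2.87 with the wild-type form and from -1.94 to 2.64 with the NTF2-deletion form. ATF4 itself rose by 0.98 (SE 0.07, adjusted p = 4.53e-41) and 0.99 (SE 0.08, adjusted p = 9.69e-38), and SLC7A5, an importer of large amino acids, by 1.67 (SE 0.04) and 1.53 (SE 0.05) from the authors' deposited tables. ASNS, asparagine synthetase, had values of -0.07 (adjusted p = 0.924) and 0.06 (adjusted p = 0.93) in the same authors' deposited tables. Under arsenite in the knockout 9 genes of the list rose and 4 fell, beside 10.9% and 15.0% of genes with a base mean of 100 or more. The list was led by DDIT3, a transcription factor of prolonged stress, at 3.24 (SE 0.16, adjusted p = 1.13e-88) and PPP1R15A, a subunit of the phosphatase that restarts translation, at 2.84 (SE 0.10, adjusted p = 1.22e-159), from the authors' deposited table, in which 0 synthetases rose. The synthetase genes were kept out of this list. Whether ATF4 has a part in the synthetase levels was not tested.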

How the data were processed

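RNA from RIP and from U2OS cells had been sequenced, and reads aligned with STAR and compared with DESeq2 2.11.40.6, per the submitters' processing notes. Genome build, annotation and whether counting used strand are not given in the sources used here, so overlapping opposite-strand genes such as HARS1 and HARS2 may share reads. Each deposited table holds the base mean (a signal: the mean, by the authors, of size-factor normalised reads in all libraries compared), the log2 fold change and its standard error (log2 values by the authors), the Wald statistic (a score by the authors), and the p-value with its adjusted p-value (deposited by the authors). The deposited fold changes lie nearer 0 than the ratio of reads for genes with few reads. From every table, 4 lines of read summaries were removed. There were 0 unmapped columns of single samples.

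Since tables of one experiment share libraries, whole reads per library were worked out from the base means of 3 tables (6 libraries) and 7 tables (12 libraries), with 1 solution for each of the 61541 genes and a largest relative residual of 5.93e-15 and 7.08e-15. Two-group calls are the authors'. Differences between tables were set against their standard error (that of 2 independent estimates), two-sided and on the normal distribution and adjusted by Benjamini-Hochberg over genes with a base mean of 10 or more in both tables. Tested on simulated data, the difference test of wild-type rescue against knockout called 27% of genes with a difference of 0.5 and 73% of those with 1.0. Of all its calls 3.85% were false. In simulations of limma, false calls were 8.43% of all calls for wild-type rescue against knockout. They were 3.57% for knockout against wild type in the first experiment, both at an adjusted p under 0.05.

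The members and gene lists were chosen with earlier results of these data known. Named by rule are, per table and class, the 3 highest and 3 lowest called members and the members with the highest and lowest base mean, with GARS1, KARS1, HARS1 and HARS2 throughout. Other genes of the lists were named after their values were seen. Alternatives were fold changes counted from the median of genes with a base mean of 100 or more, a threshold of 0.01, other filters on low values, left-out libraries and, chosen after seeing the data, limma 3.58.1 on log2(normalised reads + 1) for genes with a mean of 10 or more (R 4.3.3). Other computing used Python 3.11.15, numpy 2.4.6, pandas 2.3.3 and scipy 1.17.1. The values of some single members are not reported here, though the counts, sums and medians hold them. The other 48 libraries were not analysed here.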

Additional observations from a re-analysis of the deposited data

Results flagged for a closer look

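The response to arsenite differed between backgrounds, by a test of the difference itself, for 2 synthetases. IARS2, the mitochondrial isoleucyl enzyme, had a response higher by 0.49 (SE 0.10, adjusted p = 9.69e-05) in the wild-type rescue than in the knockout and by 0.53 (SE 0.11, adjusted p = 4.87e-05) in the NTF2-deletion rescue, from the authors' deposited tables. KARS1 had a response higher by 0.32 (SE 0.11, adjusted p = 0.0467) in the NTF2-deletion rescue than in the knockout, from the same tables. This call was lost at a threshold of 0.01 and when fold changes were counted from the table medians, and the difference for the wild-type rescue was not called, at 0.30 (adjusted p = 0.0699). With each of the 8 libraries behind a comparison left out in turn, the limma fit called IARS2 in 8 of 8 fits for both rescues, with values from 0.49 to 0.57 and from 0.52 to 0.59. KARS1 was called in 8 of 8 limma fits for both rescues, with a highest adjusted p of 0.0361 for the wild-type and 0.0179 for the NTF2-deletion form. These fits, chosen after seeing the data, do not single KARS1 out: RARS1 and SARS1, which the test on the deposited tables did not call, were also called in 8 of 8 fits for the NTF2-deletion form, and in 7 and 6 of 8 for the wild-type form. Both comparisons share the 4 knockout libraries. In a simulation of the second experiment, limma gave 8.43% false calls among all calls for wild-type rescue against knockout, at a threshold of 0.05. Its differences between arsenite responses were not simulated.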

How the results depend on the processing

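No paired analysis was possible because the libraries worked out from the tables carry no replicate numbers. The RIP counts of called members went to 0 cytosolic and 0 mitochondrial when the Wald statistics were divided by their spread. At a threshold of 0.01, arsenite called 1 mitochondrial member in the knockout and 1 in the wild-type rescue, and the test of NTF2-deletion rescue minus knockout 0 cytosolic members. Adjusted over every gene, arsenite in the wild-type rescue called 2 mitochondrial members. Limma called 11 cytosolic and 4 mitochondrial members for arsenite in the knockout, 2 mitochondrial members for arsenite in the wild-type rescue, 4 cytosolic members for the difference of wild-type rescue and knockout, and 4 cytosolic and 2 mitochondrial members for that of NTF2-deletion rescue and knockout. With genes of base mean 100 or more those differences called 1 and 2 cytosolic members, and the second called 0 when centred on the table medians. Centring moved the cytosolic median to -0.40 for knockout against rescue (first experiment), and the cytosolic and mitochondrial medians to 0.64 and 0.22 (wild-type rescue), 0.66 and 0.28 (NTF2-deletion rescue), 0.67 and 0.15 (wild-type rescue with arsenite) and 0.66 and 0.19 (NTF2-deletion rescue with arsenite). It turned AARS1 in wild-type rescue with arsenite to -0.05, the 1 of 183 named values that reversed, with 16 no longer called and 5 newly called. With a library left out, cytosolic medians ran from 0.77 (without knockout library a) to 0.87 for each rescue with arsenite and from -0.11 to -0.031 (without wild-type library b) for wild type against rescue. The limma counts with a library left out ran from 7 to 12 cytosolic and 2 to 4 mitochondrial members (arsenite in knockout), 2 to 3 and 0 to 1 (arsenite in wild-type rescue), 1 (without 1 wild-type rescue library with arsenite, library b) to 7 (without knockout library a) cytosolic (wild-type rescue minus knockout), and 3 to 6 and 1 to 2 (NTF2-deletion rescue minus knockout). The share of all genes called by limma is not given here, with or without a left-out library. Letters a and b order the libraries of a group by depth. The cause of these changes was not tested. Depth limits VARS2 most, and with 2 libraries a group small differences were not detectable.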
